A study of Mus musculus with 2 samples.

Results

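The AP-1 transcription factor genes and the immediate early genes that accompany them were examined in mouse embryonic stem cells (mESCs) after GSK3 inhibition. The set had 10 genes, namely Fos, Fosb, Fosl1, Fosl2, Jun, Junb, Jund, Ier2, Ier3 and Atf3, chosen by name. The choice was made with earlier results of these data known. Of these, 8 had a row under that name among the 30774 gene identifiers of the array. Jund was found through its Entrez gene number (16478) in a row with the older name Jund1, so 9 genes are described, each from 1 row. Fosl1 was not analysed here.

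The cells were B6 mESCs, described in the labels as of strain B6 and derived from the inner cell mass of the E3.5 embryo. Both cultures were kept in serum medium containing LIF, which signals through Stat3, and 1 of them also received CHIR99021 (CHIR), a GSK3 inhibitor that activates Wnt/β-catenin signaling, over a 12 h treatment. The growth note is the same for both samples and names both agents, so the conditions were taken from the sample titles. Each condition was represented by 1 Illumina beadchip array of total RNA. How far 2 cultures of the same condition would differ is therefore unknown, and the ratios below are given without a test. Values are background-subtracted signal intensities on a linear scale. The detection p-value deposited with each signal ranks it against the negative controls, beads without a matching transcript. A gene was called detected at a detection p-value under 0.01, and a ratio of at least 1.5-fold was taken as the limit for a higher or lower signal.

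AP-1 is a dimer of a Jun protein with a Fos, Jun or Atf protein, joined through a leucine zipper and bound to DNA through the adjoining basic region. Immediate early genes are transcribed within minutes of a stimulus, without new protein synthesis, mainly through serum response factor, its Elk partners and Creb, and their mRNAs are short-lived. MAP kinases drive both their transcription and the activity of the proteins. GSK3 phosphorylates Jun at sites that reduce its DNA binding and mark it for destruction, a step that acts on the protein and is not seen by an RNA array.

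Only 2 of the 9 genes were detected, Ier3 and Jund, both on each array. Over all identifiers, 31.2% were detected in 1 condition or both. The other 7 genes (Fos, Fosb, Fosl2, Jun, Junb, Ier2 and Atf3) were detected on neither array. Neither Ier3 nor Jund passed 1.5-fold. Of the 9615 detected identifiers, 6.16% did so in either direction. With only 2 genes, that none passed does not set them apart from the rest of the array.

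The promoters of 8 of the 10 genes were taken from RefSeq (build GRCm38.p6), as the 250 bases before the annotated start of each gene. Those of Fos and Atf3, which were not detected, and of Ier3, which was detected on both arrays, are shown so that the cAMP-response half-site TGACG can be seen. Capitals mark TGACG on either strand, and each sequence reads 5′ to 3′ along the strand of its gene.
Fos, chr12:85473640-85473889, plus strand: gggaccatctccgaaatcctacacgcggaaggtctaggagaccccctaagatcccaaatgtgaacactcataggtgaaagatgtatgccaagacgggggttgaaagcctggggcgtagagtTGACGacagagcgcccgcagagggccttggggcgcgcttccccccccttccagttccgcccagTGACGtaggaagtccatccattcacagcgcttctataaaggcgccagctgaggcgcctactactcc
Atf3, chr1:191183334-191183583, minus strand: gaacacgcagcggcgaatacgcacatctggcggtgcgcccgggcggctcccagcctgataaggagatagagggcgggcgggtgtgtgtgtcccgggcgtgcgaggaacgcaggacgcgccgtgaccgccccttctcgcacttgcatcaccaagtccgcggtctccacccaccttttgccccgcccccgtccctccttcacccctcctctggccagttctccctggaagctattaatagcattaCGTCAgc
Ier3, chr17:35821463-35821712, plus strand: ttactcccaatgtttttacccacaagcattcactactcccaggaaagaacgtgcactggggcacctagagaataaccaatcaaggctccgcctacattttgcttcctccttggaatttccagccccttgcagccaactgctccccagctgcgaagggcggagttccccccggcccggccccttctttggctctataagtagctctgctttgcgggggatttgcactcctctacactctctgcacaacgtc

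TGACG occurred in 4 of the 8 promoters and in 17.8% of all 32851 RefSeq promoter windows of that length. In Fos it stood 129 and 66 bases before the start, counted at its first base, and Fosb and Junb each had 1 match. In Atf3 the match lay on the opposite strand and ended 3 bases before the start. The windows of Ier3, Jun, Jund and Fosl2 had no match. Longer motifs were also searched on both strands, and none had an exact match to its pattern in any of the 8 windows. The AP-1 site TGACTCA was present in 4.46% of all windows. The cAMP-response element TGACGTCA, which contains the half-site, was present in 1.55%. The Tcf/Lef motif CTTTGAT was present in 3.21% and the Stat motif TTCNNNGAA in 7.02%. The CArG box, to which serum response factor binds, was present in 1.47%. These are matches of letters in a short window and do not show binding. Variant sequences and bases farther upstream were not searched. The absence of a match therefore does not show that a gene lacks such a site. The Jun window, for example, holds TGACATCA, which none of these patterns covers.

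Ier3 encodes a stress- and growth factor-induced membrane protein linked to cell survival. The array annotation places it on chromosome 17, band 17qB1 (Entrez gene 15937). Its signal was 1718 with LIF alone and 1327 with CHIR added, and no negative control on either array was as bright. The signal was thus 1.29-fold higher in LIF than in LIF plus CHIR (log2 ratio of LIF plus CHIR over LIF -0.37), short of the 1.5-fold limit. Of the 3269 identifiers with a brighter signal of 1000 or more, 102 (3.12%) had a log2 ratio at or below that of Ier3. The middle of that class, from the 5th to the 95th percentile, ran from -0.29 to 0.28 on the log2 scale, and 2.20% of it passed 1.5-fold in either direction. Ier3 lay below this range, but a difference between 2 cultures of the same treatment was not measured and cannot be told apart from one due to CHIR. In RNA from whole cultures, fewer expressing cells and less RNA per cell cannot be told apart either.

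Jund encodes the Jun protein that is present in resting cells and is not strongly induced by growth factors. Its row lies on chromosome 8 and had a signal of 61.6 in LIF and 61.2 in LIF plus CHIR. As bright or brighter were 5 of the 936 negative controls in LIF and 3 in LIF plus CHIR, so the gene was just inside the detection limit on both arrays. The log2 ratio was -0.01. In its class of brightness (brighter signal under 100), the 5th and 95th percentiles were -0.62 and 0.56 and 10.3% of identifiers passed 1.5-fold. These percentiles are over different genes. They do not give the size of change in Jund that could have been detected, which was not measured.

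**Figure D1:**
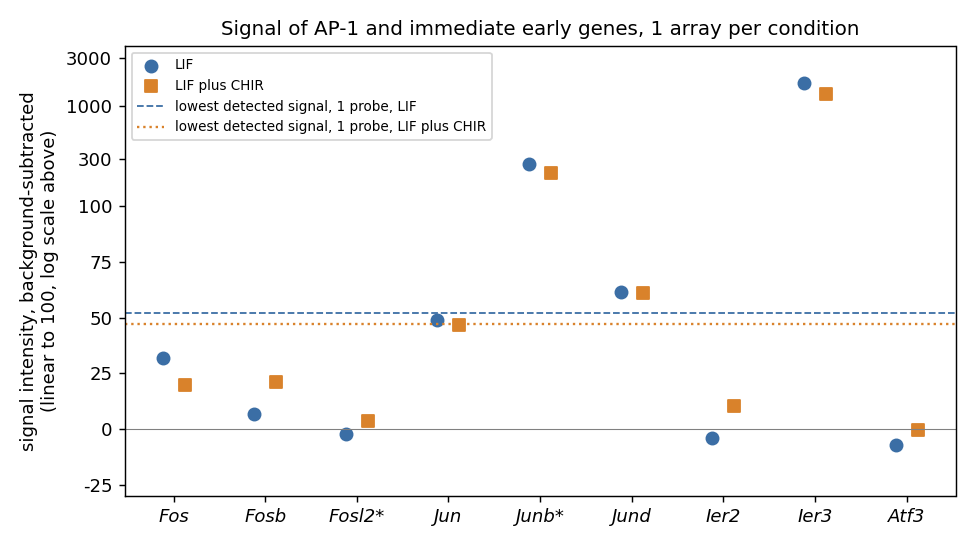
Background-subtracted signal intensity (vertical axis, linear up to 100 and logarithmic above) of the 9 genes in LIF (circles) and LIF plus CHIR (squares), 1 array each; asterisks mark genes measured by several probes, and the lines give the lowest signal detected among 1-probe identifiers. Ier3 (1718 and 1327) and Jund (61.6 and 61.2) lie above the lines and are detected, Junb (263.3 and 216.4) lies above them without passing its detection p-value, and the other 6 lie below.

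Among the other Jun genes, Jun stayed just outside the limit. Jun is the founding member of AP-1 and its strongest activator. Its signal was 48.9 with LIF alone and 46.7 with CHIR added, with detection p-values of 0.0150 and 0.0107, or 14 and 10 of the 936 controls. Among 1-probe identifiers the lowest detected signals were 51.9 and 47.1, so both Jun signals lay under them and the ratio is not given as a measured change. At a detection p-value under 0.05, Jun would count as detected, with a log2 ratio of -0.07.

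Junb encodes a Jun protein that is a weaker activator and can restrain Jun. It was measured by several probes, with an averaged signal of 263.3 in LIF and 216.4 in LIF plus CHIR. Its detection p-values, which are combined over the probes, were 0.0473 and 0.0345, so it was not called detected, although both averages were well above the limits given for Jun. Such a pattern was not rare, since 1320 identifiers with several probes had signals above those limits on both arrays without passing 0.01. Counted as detected by its signal, a rule added after the values were seen, Junb had a log2 ratio of -0.28, also short of 1.5-fold.

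The Fos genes were not detected on either array. Fos, whose product pairs with Jun and is the classic marker of a recent stimulus, had a signal of 31.9 in LIF and 19.5 in LIF plus CHIR. As bright or brighter were 47 and 116 of the 936 controls. Fosb, a close relative of Fos, had 6.81 in LIF and 21.2 in LIF plus CHIR, with 219 and 105 controls as bright. Fosl2, which encodes the slower Fos-related protein Fra-2, had averaged signals over several probes of -2.49 in LIF and 3.42 in LIF plus CHIR, with detection p-values of 0.526 and 0.282. Fos was dimmer and Fosb and Fosl2 brighter in LIF plus CHIR, with all signals inside the range of the negative controls.

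Ier2 and Atf3 were not detected either. Ier2, an immediate early gene for a nuclear protein, had a signal of -4.24 in LIF and 10.1 in LIF plus CHIR, with 442 and 192 controls as bright. Atf3, a stress-induced partner of Jun that often acts as a repressor, had -7.11 in LIF and -0.55 in LIF plus CHIR, with 561 and 362 controls as bright. For the 5 undetected genes with 1 probe (Fos, Fosb, Jun, Ier2 and Atf3), the signal was higher in LIF plus CHIR in 3 and lower in 2. All 5 differences, the largest being 14.4 for Fosb, were smaller than the SD of the background fitted on each array (15.7). That SD is a spread over different probes within 1 array. It does not measure how far the same probe differs between arrays. No fold change at a detection p-value of 0.01 is given for these genes, because neither signal passed it. At this sensitivity their RNA was not detectable, which does not show that it was absent. The arrays followed a 12 h treatment and no earlier time was measured. Whether these genes responded in the first minutes or hours of CHIR is therefore not known.

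**Figure D2:**
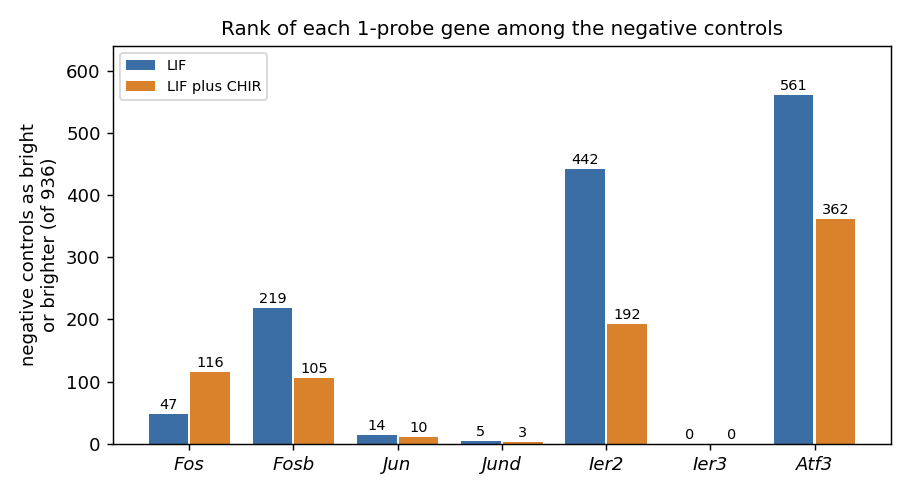
Number of the 936 negative controls that were as bright as or brighter than each gene measured by 1 probe (vertical axis, starting at 0), in LIF and in LIF plus CHIR, 1 array each. No control reached Ier3 and at most 5 reached Jund, whereas between 47 and 561 reached Fos, Fosb, Ier2 and Atf3.

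Other immediate early genes were taken from a list of 43, of which 42 had a row and 22 were detected. The 22 include Ier3ip1, which is named as a partner of Ier3 and may not itself be an immediate early gene. The low signals of Fos, Fosb, Ier2 and Atf3 were not shared by all genes of this class. Among the 22, only Plk3 passed 1.5-fold, as lower, and none as higher; over all detected identifiers 3.16% passed as lower. The log2 ratio was below 0 for 14 and above 0 for 8, with a median of -0.20. Over all 9615 detected identifiers 50.8% were below 0 and the median was 0.00. Whether the 22 genes differ from all identifiers by more than sampling was not tested. The list was written with earlier results of these data known. Of the 21 detected on both arrays, 11 differed by under 1.2-fold and 9 by between 1.2- and 1.5-fold. Apart from Plk3 and Sgk1, the genes of this list are named here after their values were seen.

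Plk3, a stress-responsive Polo-like kinase, had a signal of 2049 in LIF and 1362 in LIF plus CHIR, a lower value with CHIR (log2 ratio -0.59). It lay at the 1.5-fold limit (0.58 on the log2 scale), and after normexp background correction it was just under it (-0.58). In its class of brightness 1.01% of identifiers were as low or lower. Its relative Plk2 had 357.8 and 413.2 (0.21). Sgk1, a growth factor-regulated kinase, had nearly equal signals of 27694 and 27835 (0.01).

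Among transcription factors of the early response, Egr1, Srf and Csrnp1 had lower signals with CHIR, all short of the limit. Egr1, a zinc finger factor induced together with Fos, had 771.4 in LIF and 614.2 in LIF plus CHIR (log2 ratio -0.33). Srf, serum response factor itself, had 321.6 and 242.3 (-0.41). Csrnp1, listed on the array as Axud1, had 2887 and 2060 (-0.49). Egr2, Egr3, Egr4, Nr4a1, Nr4a2 and Nr4a3 were not detected on either array, as was the case for Fos.

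Genes that end the early response varied in size. Zfp36, whose product tristetraprolin triggers decay of AU-rich early mRNAs, had 1202 in LIF and 846.3 in LIF plus CHIR (log2 ratio -0.51), whereas its relative Zfp36l1 had 4508 and 5237 (0.22). Of the dual-specificity phosphatases, which switch off MAP kinases, Dusp2 had 59.8 and 42.0 (-0.51), Dusp4 had 364.6 and 282.3 (-0.37), Dusp6 had 2564 and 2211 (-0.21) and Dusp1 had 4741 and 4878 (0.04). Dusp2 was dim, and 8.38% of identifiers in its class of brightness (brighter signal under 100) were as low or lower. For Zfp36 the share in its class (1000 or more) was 1.68%. Spry4, a feedback inhibitor of receptor signaling, had 701.4 and 680.3 (-0.04). Btg1, an antiproliferative gene, had the highest ratio of the list, with 1604 in LIF and 2344 in LIF plus CHIR (0.55).

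Arc, an early gene best known in neurons, had 395.7 in LIF and 271.6 in LIF plus CHIR (log2 ratio -0.54). Mcl1, a survival gene of the Bcl2 family, had 6067 and 4705 (-0.37). Socs3, a feedback inhibitor induced by Stat3, had 3733 and 4234 (0.18). Trib1 was detected in LIF only (56.0, against 13.0 in LIF plus CHIR), so its fold is a bound of at least 1.19-fold lower with CHIR against the lowest detected signal.

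**Figure D3:**
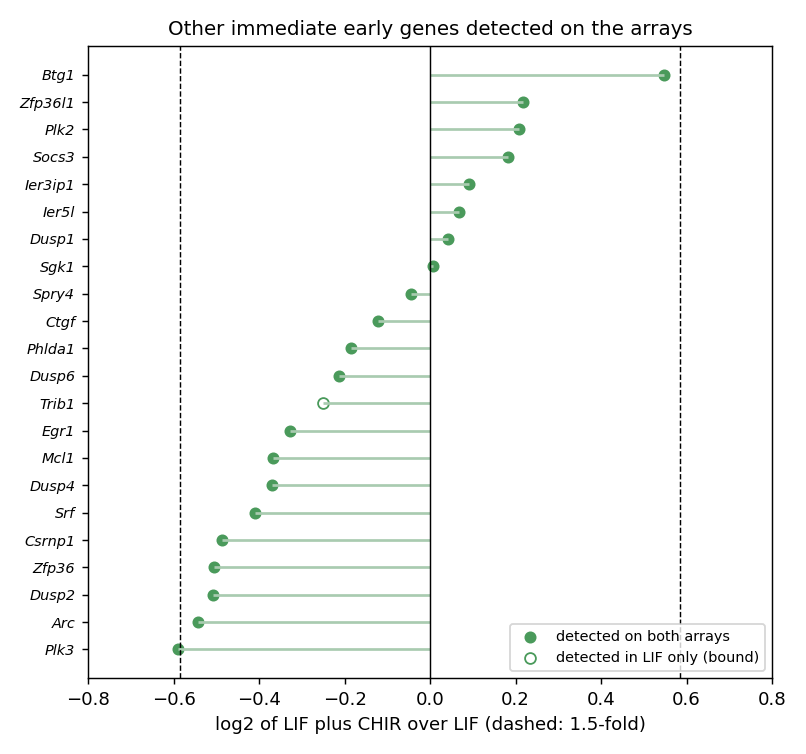
Log2 ratio of LIF plus CHIR over LIF (horizontal axis) for the 22 detected genes of the list of other immediate early genes, 1 array per condition; the open circle is Trib1, for which the value is a bound. Only Plk3 reaches the dashed 1.5-fold lines, 14 genes lie below 0 and 8 above.

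Genes for proteins that pair with AP-1 or act upstream of it were read from further lists. Of 20 other bZIP genes, which encode possible partners of Jun and Fos, 6 were detected (Atf4, Atf5, Mafg, Cebpb, Ddit3 and Nfe2l1). None passed 1.5-fold, and their median log2 ratio was 0.11. Nfe2l1, a stress factor that pairs with small Maf proteins, had 3402 in LIF and 3713 in LIF plus CHIR (0.13). Of 15 factors that switch on immediate early genes, 5 were detected and none passed 1.5-fold. Over all detected identifiers 6.16% passed in either direction, so none passing in lists this short does not set them apart. The highest signal was that of Rps6ka1, the ERK-activated kinase RSK1, with 5487 and 5455 (-0.01).

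Of 19 genes for MAP kinases, their activating kinases and GSK3, 14 were detected and none passed 1.5-fold, with a median of 0.04. Gsk3b, for a kinase that CHIR inhibits, had 457.0 in LIF and 461.2 in LIF plus CHIR (log2 ratio 0.01). Gsk3a, the other GSK3 gene of the list, was detected on neither array, with 30.5 and 41.4. At a detection p-value under 0.05, Gsk3a would count as detected, with a log2 ratio of 0.38. Of 12 genes for turnover of Jun and Fos proteins or for AP-1 repression, 11 had a row, 7 were detected and none passed 1.5-fold. Beside the share of 6.16% over all detected identifiers, none passing in lists of this size does not set these genes apart either. Fbxw7, the ubiquitin ligase subunit that recognises GSK3-phosphorylated Jun, had 439.8 and 454.8 (0.05), and the corepressor gene Ncor1 had 2313 and 2274 (-0.02).

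Of 32 genes known to carry AP-1 sites, 13 were detected, and their median log2 ratio was 0.10. Tgfb1, a growth factor gene, was higher with CHIR, with signals of 113.0 in LIF alone and 170.7 with CHIR (1.51-fold, log2 ratio 0.60). Hmox1, for the heme-degrading enzyme induced by oxidative stress, was lower, with 127.2 and 74.4 (-0.77). In their class of brightness (100 to under 1000), 7.34% of identifiers passed 1.5-fold. Ccnd1, the cyclin D1 gene, had 3923 and 4347 (0.15). Of the matrix metalloproteinase genes, much-used readouts of AP-1 activity, Mmp9 was detected on both arrays, with 56.3 and 54.6 (-0.04), and Mmp3, Mmp10, Mmp12, Mmp13 and Mmp14 on neither, although Mmp14, with several probes, had averaged signals of 1013 and 1081.

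**Figure D4:**
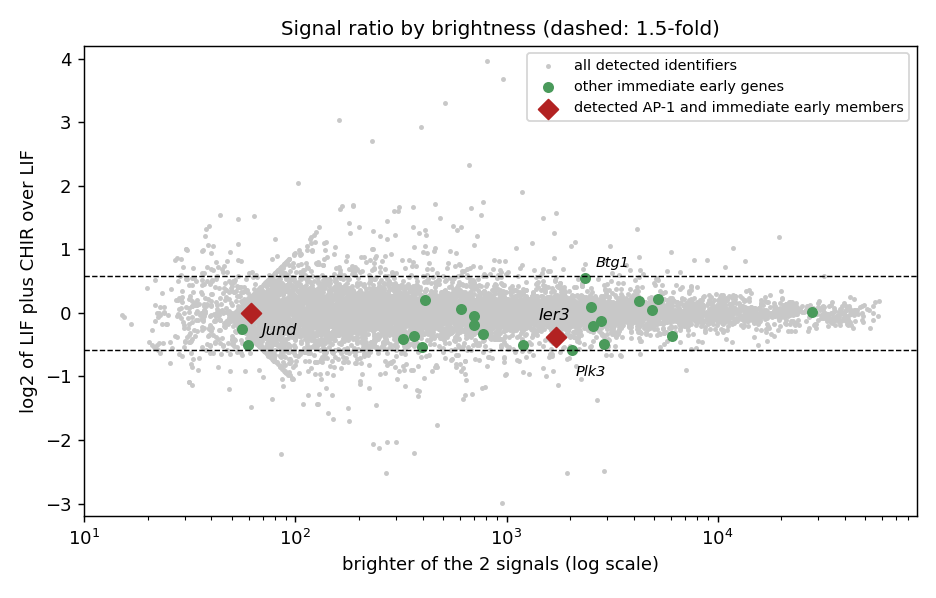
Log2 ratio of LIF plus CHIR over LIF (vertical axis) against the brighter of both signals (horizontal axis, log scale). Grey points are the 9615 detected identifiers, and green circles the 22 detected genes of the list of other immediate early genes. Red diamonds are the 2 detected genes Ier3 and Jund, and dashed lines mark 1.5-fold. Ier3 and Jund lie between the lines, and the grey cloud widens toward dim signals.

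Cell type markers and Wnt targets were read as a check of the labels. Of 10 markers of mESCs, 8 were detected, including Pou5f1, Nanog and Zfp42. Sox2 and Tdgf1 did not pass 0.01 on either array. Sox2, with several probes, had averaged signals of 441.2 with LIF alone and 400.2 with CHIR added. Its combined detection p-values were 0.0503 and 0.276. Tdgf1 was dim, with 26.6 and 14.6. Among the 8 detected markers, Klf2 was the only one past 1.5-fold, as higher with CHIR (log2 ratio 0.83). Of 8 fibroblast markers none was detected at 0.01; Thy1, with several probes, had averaged signals of 222.3 and 225.3, and Col1a1 and Col3a1 were below 0 on both arrays. Of 6 targets of Wnt/β-catenin signaling, 4 (Axin2, Sp5, T and Cdx1) were detected, all at least 1.5-fold higher with CHIR. Sp5 and T were detected in LIF plus CHIR only, so their ratios are bounds. Lef1 and Nkd1 were detected on neither array. Of all 9615 detected identifiers, 288 were at least 1.5-fold higher. The list was written with earlier results of these data known, so it is not an independent check. Axin2, a feedback inhibitor of the pathway, had 314.1 in LIF and 1178 in LIF plus CHIR, or 3.75-fold higher. In LIF 9021 identifiers were detected, and in LIF plus CHIR 9174.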

How the data were processed

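Total RNA of 2 cultures, 1 per condition, was measured on Illumina mouse beadchips, and conditions were assigned from the sample titles. Each table deposited by the authors holds linear signal intensity, 1 value per identifier and array, already background-subtracted. Software, genome build and the method of normalization are not given in the sources used here. Each deposited signal comes with its detection p-value. Both tables were read, 1 labelled as normalized and the other as non-normalized, and 0 shared values differed. The ratios come from the one labelled non-normalized. The number of negative controls (936) was inferred from the p-values. An identifier whose p-values corresponded to whole numbers of controls (within 0.001 of a control) was taken to have 1 probe (23344), the others (7430) several. The members and gene lists were chosen with earlier results of these data known. Of 175 list entries, 169 matched by row name and 3 by Entrez gene number through RefSeq (GRCm38.p6).

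Log2 ratios were computed (Python 3.11.15, pandas 2.3.3, numpy 2.4.6, matplotlib 3.10.9) for identifiers that passed a detection p-value of 0.01 in either condition. Signals under the lowest detected signal of their kind (1 probe: 51.9 in LIF, 47.1 in LIF plus CHIR; several: 15.1 and 14.8) were raised to it. Named by rule were the members, list genes past 1.5-fold and the detected gene with the highest signal of each list; some list genes are not reported here. The calculation was tested on simulated data. Alternatives included quantile normalization, equal medians, normexp (limma 3.58.1, R 4.3.3, offset 16), other detection rules and minimum signals, and a 2-fold limit. The search for TGACG was added to the planned motifs. The number of arrays limits the precision.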

Additional observations from a re-analysis of the deposited data

How the results depend on the processing

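No paired analysis was possible because there is a single array for each condition, which leaves no pairs to compare. The count of members past 1.5-fold was 0 in both directions under every alternative run, although only 2 to 4 members had a value: Ier3 ranged from -0.38 to -0.37 and Jund stayed at -0.01 on the log2 scale. The median of the other immediate early genes lay between -0.20 and -0.18 in each alternative. In that list the number at least 1.5-fold lower was 1, and it was 2 at a detection p-value under 0.05, 2 without a minimum signal, 2 with 1 minimum signal for all identifiers and 0 at a limit of 2-fold. The second gene was Trib1, undetected with CHIR, whose log2 ratio of -0.25 became -0.84, -2.11 and -1.92 under the first 3 of these, and -1.05 after normexp correction. The number at least 1.5-fold higher was 0, and it was 1 with detection by signal, an alternative chosen after seeing the data, through Nfkbia (370.9 in LIF, 621.9 in LIF plus CHIR, log2 ratio 0.75). The same alternative added Rps6ka5 (-0.81) to the factors upstream. After normexp correction Tgfb1 fell short of the limit (0.54). Over all detected identifiers the share past 1.5-fold ranged from 5.01% with detection on both arrays to 8.53% at a detection p-value under 0.05, and 1.37% passed 2-fold. Detection limits most of the members: 7 of 9 did not pass it, Junb on its combined p-value and the others with dim signals.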
